A study of Mus musculus with 2 samples.

Results

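The subunits of the oxidative phosphorylation system were examined in RNA of Dicer_KO mouse embryonic stem cells (mESCs). Members were taken by symbol and gene type: every protein-coding gene with a symbol starting with Nduf (without the Ndufaf assembly factors), Uqcr, Cox4 to Cox8, Atp5, mt-Nd, mt-Co, mt-Cytb or mt-Atp, together with Sdha, Sdhb, Sdhc and Sdhd. This gave 98 of the 43629 genes listed, 85 in the nucleus and 13 on the mitochondrial genome. Complex I held 38 nuclear and 7 mitochondrial members, complex II 4 nuclear members, complex III 8 and 1, complex IV 18 and 3, and complex V 17 and 2. The rule itself uses names and gene types, not measured values. By this rule Cyc1, a core protein of complex III, was left out, and so were Atpif1 and Usmg5, which newer nomenclature places among the Atp5 symbols, whereas Atp5s was kept.

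The series consists of 2 libraries of polyA-selected RNA, replicate 1 at passage 7 and replicate 2 at passage 4, with the genotype Dicer knockout on a 129/Ola background and the blastocyst as the tissue of origin. Per the study's methods, paired CRISPR/Cas9 cuts in the E14TG2a line gave independent deletions of Dicer1, each kept as a clone, in medium with serum and LIF. The labels do not name the deletion of each library, so deletion, clone, passage and library cannot be told apart. All libraries here carry the knockout and no WT library was analysed, so nothing below measures an effect of losing Dicer, and no test between conditions was possible. With 2 samples that the labels call separate replicates, the values are given with their SD (n = 2), and differences between the libraries are descriptions.

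Oxidative phosphorylation takes place in the inner mitochondrial membrane. Complex I (NADH dehydrogenase) and complex II (succinate dehydrogenase) pass electrons to ubiquinone, complex III (cytochrome bc1) hands them to cytochrome c, and complex IV (cytochrome c oxidase) transfers them to oxygen. Complexes I, III and IV pump protons, and complex V (ATP synthase) lets the protons back to make ATP. Complex II is encoded in the nucleus alone, while each of the other complexes combines subunits of the nuclear and mitochondrial genomes. The mitochondrial genes are transcribed as long polycistronic RNAs that are cut at the tRNAs between them. Several nuclear subunits of complex IV have a second form restricted to muscle, lung, brain or testis. Pluripotent cells are known to rely strongly on glycolysis while keeping an active respiratory chain.

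Counts on genes summed to 41710122 in replicate 1 and 41566184 in replicate 2, so that 3 counts corresponded to 0.0719 and 0.0722 CPM (counts per 1000000 counts on genes). All 10 embryonic stem cell markers were found, with a summed level of 10125 and 6517 CPM, and Pou5f1 had 39069 and 43025 counts. The lists of other cell types were low: summed over each list, fibroblast markers reached 27.2 and 17.6 CPM with 1 of 6 at 0 in both libraries, primitive endoderm 15.2 and 8.13 CPM, trophectoderm 8.56 and 0.986 CPM, neuroectoderm 10.2 and 19.4 CPM, muscle 22.1 and 7.77 CPM, and testis 3.02 and 4.60 CPM with 3 of 5 at 0. Dicer1 itself had 1343 and 1510 counts. This count covers the whole gene, also the parts outside the deletions, so it does not check the genotype. In bulk RNA, fewer cells of a type and less RNA per cell cannot be told apart.

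Many members have near-identical copies elsewhere in the genome, and these sequences come before the levels because the counts of such members are uncertain. The authors allowed reads to align at many places, and how reads with several alignments were counted is not stated in the sources used here. Each member's principal transcript (GENCODE M21, GRCm38) was cut into all overlapping words of 50 bases, and the words also found in transcripts of other genes were counted. At least 20% of the words were shared by 11 of the 85 nuclear members and by 7 of the 13 mitochondrial members. The share was 98.0% in mt-Nd3 and higher in mt-Co2, mt-Atp6, mt-Co3 and mt-Nd4l. Their copies are 5 of the 7 annotated pseudogenes that lie in a row on the minus strand of chr1:24611535-24616197, a block of 4663 bases. The corresponding stretch of the mitochondrial genome, from position 1054 of mt-Co1 to position 876 of mt-Nd4, is chrM:6381-11042 and spans 4662 bases.

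The example of mt-Nd4l, a core subunit of complex I, shows how complete the match is. Its first 294 bases (chrM:9877-10170, plus strand) and those of the pseudogene Gm10222 in the chromosome 1 block had 0 differences, so that 1 run stands for both:

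mt-Nd4l and Gm10222: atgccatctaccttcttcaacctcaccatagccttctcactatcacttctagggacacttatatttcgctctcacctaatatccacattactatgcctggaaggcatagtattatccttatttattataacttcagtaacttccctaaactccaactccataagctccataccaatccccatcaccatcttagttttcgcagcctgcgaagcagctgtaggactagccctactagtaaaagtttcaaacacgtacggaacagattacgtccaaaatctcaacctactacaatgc

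The copies of mt-Co2 (681 bases), mt-Atp6 (678 bases), mt-Co3 (783 bases) and the first 876 bases of mt-Nd4 also had 0 differences. The copy of mt-Nd3 differed once in 345 bases, T3C, counted from the start of the gene with the base of mt-Nd3 first. The copy of mt-Co1 covered its last 492 bases, with 6 differences that all lay between positions 1056 and 1066. No copy of mt-Atp8 is annotated, although the sequence between the copies of mt-Co2 and mt-Atp6 is 233 bases long on chromosome 1, as on the mitochondrial genome, where mt-Atp8 starts in it. The bases of chromosome 1 between these pseudogenes were not compared.

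Among nuclear members the copies were mostly processed pseudogenes, the intronless products of reverse transcription. The following stretches of 120 bases are shown because the copy had more counts than the member. They start at position 248 of Ndufs5, an accessory subunit of complex I, and position 82 of Atp5l, subunit g of ATP synthase, and capitals mark the bases that differ (T328C and A352G, Ndufs5 first):

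Ndufs5: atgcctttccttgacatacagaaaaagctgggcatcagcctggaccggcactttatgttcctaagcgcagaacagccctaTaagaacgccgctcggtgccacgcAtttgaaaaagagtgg
BC002163: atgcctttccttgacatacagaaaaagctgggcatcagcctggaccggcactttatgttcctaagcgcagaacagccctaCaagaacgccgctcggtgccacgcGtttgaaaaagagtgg
Atp5l and Gm10221: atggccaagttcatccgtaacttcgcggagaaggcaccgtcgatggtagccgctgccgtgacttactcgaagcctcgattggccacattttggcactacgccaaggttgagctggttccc

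Ndufs5 had 49 and 57 counts in replicates 1 and 2, while BC002163 on chromosome 16 had 1052 and 944. Over all 319 bases that could be set side by side, these were the only 2 differences. Atp5l had 95 and 135 counts, while Gm10221 on chromosome 5 had 1805 and 2688, with 0 differences over 309 bases. Cox7c, a small subunit of complex IV, had 691 and 758 counts beside 4912 and 5005 for Gm12338, which was identical over 192 bases. Ndufa12 had 311 and 274 counts beside 1102 and 1105 for Gm15920, and Atp5g1 had 1149 and 1275 beside 2474 and 2608 for Gm10039. In these 5 pairs the copy outweighed the member in both libraries. So did the copy Gm10925 of mt-Atp6, with 3490 and 3241 counts beside 2968 and 2829. The opposite was seen for Atp5f1 (7976 and 8526 counts, copy 772 and 766), for mt-Co1, whose copy Gm29216 had 2990 and 2483 counts, and for mt-Nd4, whose copy Gm28439 had 992 and 962. A low count of a member with such a copy is therefore not read as a low transcript level here.

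**Figure D1:**
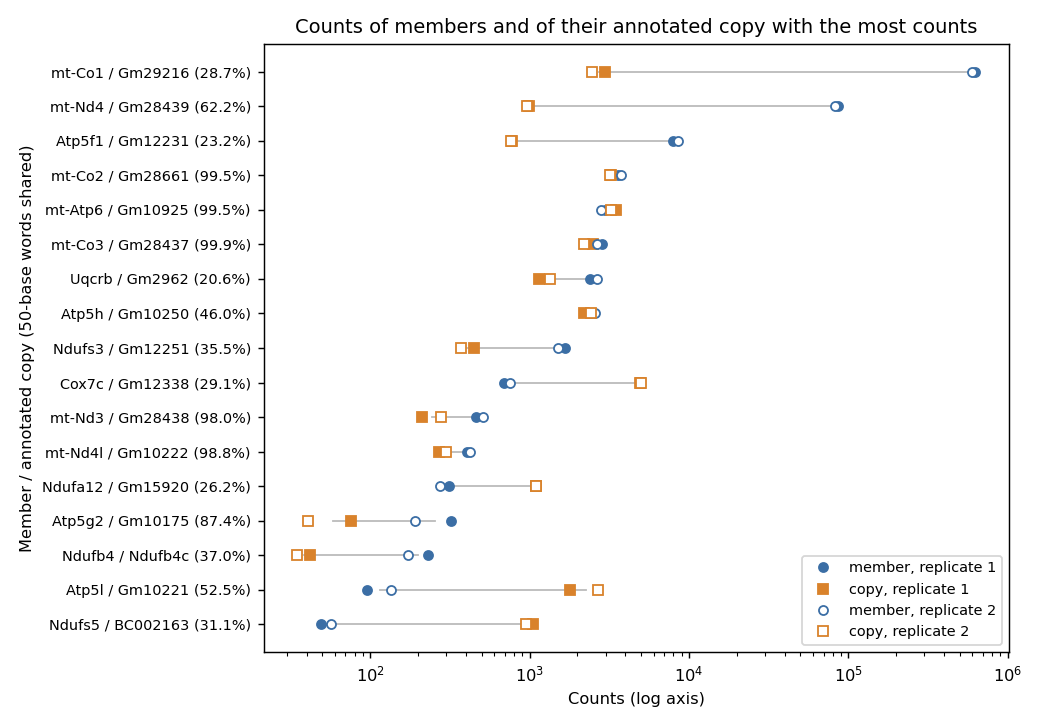
Counts (log axis) of the members that share at least 20% of their 50-base words with 1 annotated pseudogene, beside the counts of that pseudogene; where several qualify, the one with the most counts is drawn. Circles are members, squares copies, filled symbols replicate 1 and open symbols replicate 2. Ndufs5 and Atp5l sit far to the left of their copies, mt-Co1 and mt-Nd4 far to the right.

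Members of the mitochondrial genome took 3.32% of all counts in replicate 1 (95% Wilson interval 3.31 to 3.33) and 3.60% in replicate 2 (3.59 to 3.60). The far more numerous nuclear members took 1.01% and 0.979% (0.976 to 0.982 for replicate 2). These intervals cover counting error only. The ratio of mitochondrial to nuclear counts was 3.29 in replicate 1 and 3.68 in replicate 2. PolyA selection captured the mitochondrial RNAs only as far as they carry a polyA tail, so the ratio is one of captured RNA. Levels between genes are given per length from here on, as CPM per kilobase of merged exons. By this measure the median nuclear member had a level of 43.7 in replicate 1 and 34.7 in replicate 2. The median mitochondrial member, mt-Nd6 in both libraries, had 309.0 and 460.0. The mean of these, 385, became 2421 without the members sharing at least 20% of their words. With the length of the principal transcript it stayed at 385. The nuclear medians rose in every complex, from 34.7 to 52.9 in complex I and from 38.7 to 94.6 in complex V.

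The mean levels of the mitochondrial members ranged from 33.6 to 9489. mt-Co1, the catalytic core of cytochrome c oxidase, had 624518 and 596454 counts and was the gene with the most counts of all 43629 in both libraries, at a level of 9489 ± 285 (SD, n = 2). It took 45.1% of the mitochondrial members' counts in replicate 1 and 39.9% in replicate 2. mt-Nd1, a core membrane subunit of complex I, followed with 216588 and 303449 counts at levels of 5426 and 7628. mt-Cytb, the cytochrome b of complex III, had 195264 and 199287 counts at 4092 and 4191. The 3 genes led the mitochondrial members in both libraries.

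mt-Nd2 had 111164 and 149799 counts at levels of 2568 and 3472. mt-Nd5 had 132813 and 143809 counts at 1746 and 1897, and mt-Nd4 had 86845 and 82561 counts at 1511 and 1441. All are core membrane subunits of complex I, and in both libraries all of the 6 genes named so far were above the highest nuclear member. mt-Nd6, the only protein gene on the minus strand, was lower, with 6689 and 9924 counts at 309.0 and 460.0. The order mt-Co1, mt-Nd1, mt-Cytb, mt-Nd2, mt-Nd5, mt-Nd4, mt-Nd6 was the same in both libraries. No neighbours in this order overlapped between the libraries. However, mt-Co1 and mt-Nd4 share 51.1% and 62.2% of their words with other genes. Their places in the order thus depend on how reads with several alignments were counted, which both libraries have in common.

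The other 6 mitochondrial members lay at 132 or less, within the range of the nuclear members. mt-Co2 and mt-Co3, which form the core of complex IV together with mt-Co1, had 3614 and 3765 counts at levels of 127 and 132, and 2834 and 2661 counts at 86.7 and 81.7. The level of mt-Co1 was thus 76.5 and 70.1 times that of mt-Co2, and 112 and 114 times that of mt-Co3. mt-Atp6, the proton channel subunit of ATP synthase, had 2968 and 2829 counts at 104 and 99.9. mt-Nd3 had 464 and 511 counts at 32.0 and 35.3, and mt-Nd4l 407 and 426 at 32.9 and 34.5. Of these 6, the 5 just named are those with almost all of their words on chromosome 1, and they had a median level of 84.2 ± 3.54, against 2421 ± 373 for the other 8 mitochondrial members (SD, n = 2).

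The remaining low gene, mt-Atp8, a small stalk subunit of ATP synthase, had 545 and 577 counts at 64.1 and 68.0. It shares no word with another annotated gene, but its last 43 of 204 bases overlap the start of mt-Atp6 (chrM:7927-7969, plus strand), where reads on overlapping genes were left out by the authors:

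mt-Atp8 and mt-Atp6 overlap: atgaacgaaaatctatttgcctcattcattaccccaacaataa

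The pair mt-Nd4l and mt-Nd4 overlaps by only 7 bases. The 7 pseudogenes of the chromosome 1 block together had 13679 and 12689 counts, and the 5 mitochondrial members with the highest shared percentage 10287 and 10192. The other 8 mitochondrial members had 1374426 and 1485860 counts. Whether reads matching both places were dropped was not tested.

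**Figure D2:**
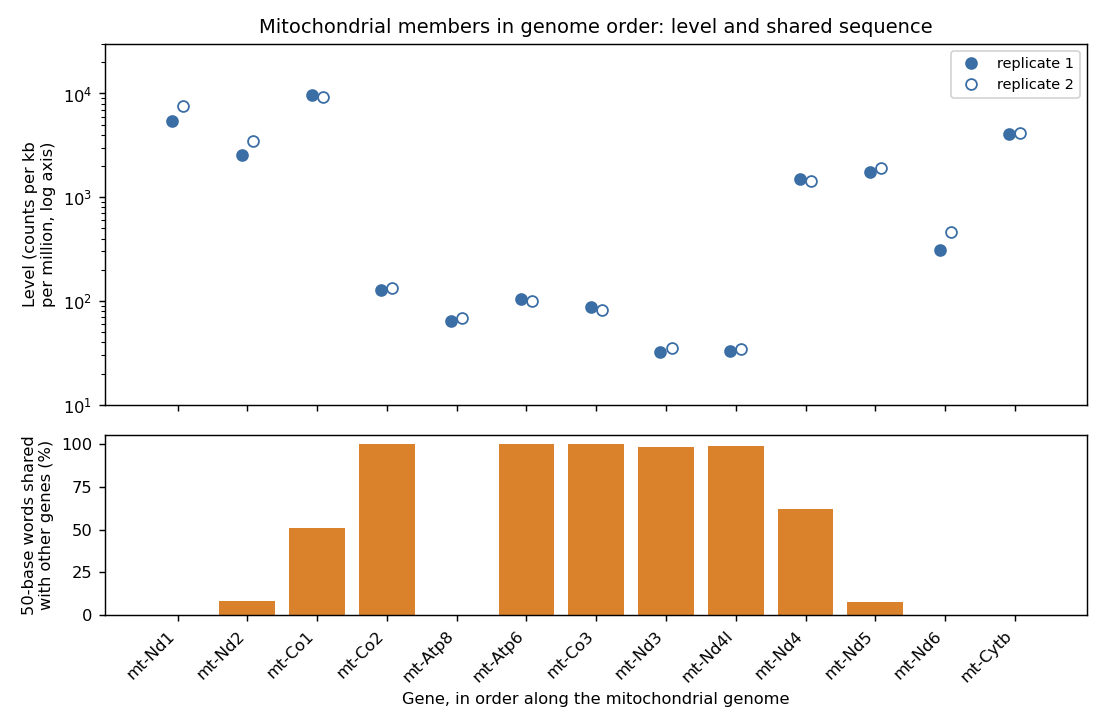
The 13 mitochondrial members in the order of the genome, with the level in each library above (CPM per kilobase, log axis, filled for replicate 1 and open for replicate 2) and below the percentage of their 50-base words found in other annotated genes. The 5 members near 100% all have levels between 32.0 and 132, and mt-Atp8, which lies between 2 of them, has no shared word.

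Among the nuclear members, median levels were highest in complex III (70.4 ± 3.61, SD, n = 2), followed by complex II (48.8 ± 1.96), complex V (38.7 ± 3.50), complex IV (37.8 ± 8.98) and complex I (34.7 ± 5.15). Complex III stood first and complex II next in both libraries, with 67.8 and 72.9 for complex III and 47.5 and 50.2 for complex II. The medians of complexes V (41.2 and 36.3), IV (44.2 and 31.5) and I (38.3 and 31.1) overlapped between the libraries and were not told apart. The order depended on the gene length used: with the length of the principal transcript, the medians were 111 for complex III, 94.6 for complex V, 70.4 for complex II, 65.4 for complex IV and 52.9 for complex I. Complexes III and I kept the highest and the lowest place, and complex V passed complex II.

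**Figure D3:**
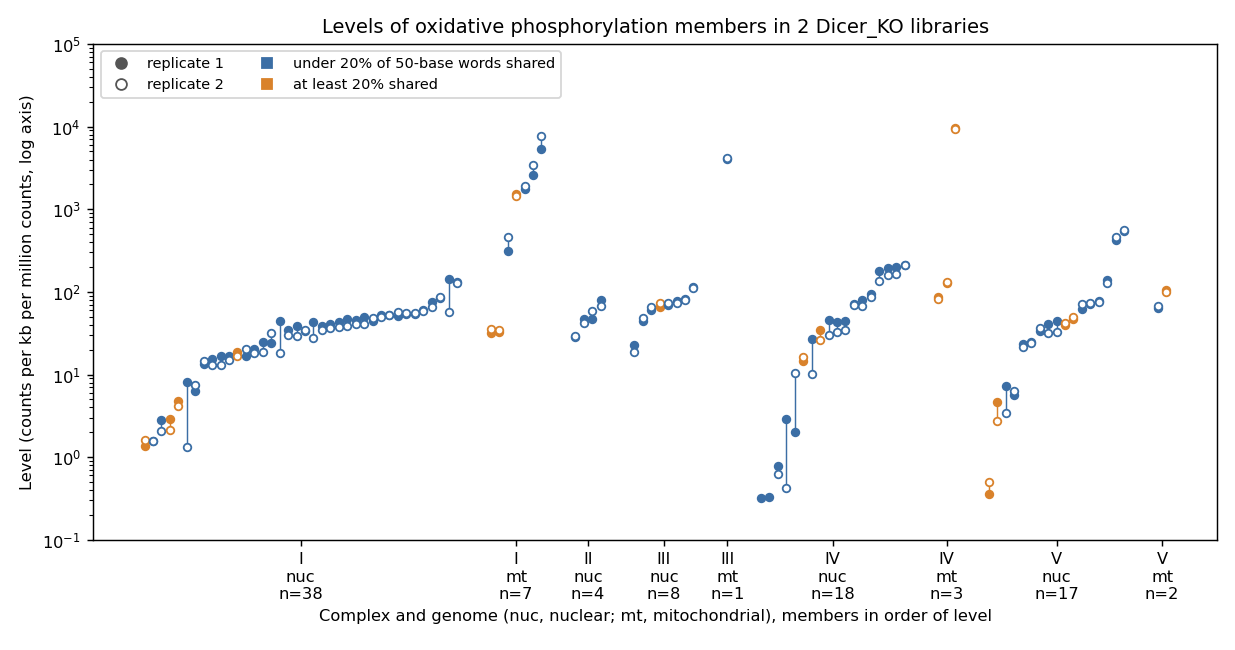
Level of each of the 98 members (CPM per kilobase, log axis) by complex and genome, ordered by level within each, with replicate 1 filled and replicate 2 open. Orange marks members that share at least 20% of their 50-base words with other annotated genes. Values of 0 are not drawn, which concerns Cox6a2 and Cox8b in replicate 2. Complexes II and III have no nuclear member below a level of 18, whereas complexes I, IV and V reach below 2. In complex V this is Atp5l alone, and in complex I it includes Ndufs5. Both have a copy with more counts, so their values are not read as low transcript levels.

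In complex I, the nuclear core subunits, which include the carriers of the flavin and the iron-sulfur clusters, had a median level of 40.5 ± 4.45, against 34.3 ± 5.65 for the 31 accessory subunits (SD, n = 2). Their ranges overlapped. Ndufs7, which holds an iron-sulfur cluster, had the lowest mean level of the core subunits, with 1203 and 1060 counts at levels of 16.8 and 14.8, although Ndufs1 was slightly lower in replicate 1, at 16.7 and 20.1. Summed over the nuclear core, the counts were 29548 and 29924.

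By the mean of the libraries, the highest accessory subunit was Ndufa4, with 7523 and 7444 counts at levels of 131 and 129.7. It carries a complex I name but is known to be a component of complex IV. Ndufb9, a subunit of the membrane arm, had 6194 and 2461 counts at 144 and 57.4, above Ndufa4 in replicate 1. The lowest by the mean were Ndufs5 (levels 1.37 and 1.59), discussed above, Ndufb2 with 364 and 371 counts at 1.55 and 1.59, and Ndufab1, the mitochondrial acyl carrier protein, with 816 and 597 counts at 2.84 and 2.09. In replicate 2 Ndufa4l2 was lower still, at 8.14 and 1.32. The annotated exons of Ndufb2 and Ndufab1 merge to 5628 and 6883 bases, which lowers a level per length. Ndufab1 also shares words with Gm4459, which had 814 and 686 counts.

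Complex II, with the fewest nuclear members (4), had the narrowest range of mean levels, from 28.8 to 73.2. Sdha, the flavoprotein, had 13613 and 11552 counts at levels of 79.1 and 67.4, and Sdhb, the iron-sulfur subunit, had 4440 and 3944 counts at 47.5 and 42.4. The membrane anchors Sdhd and Sdhc had 2433 and 2972 counts at 47.4 and 58.1, and 3816 and 3983 counts at 28.2 and 29.5. The catalytic subunits were slightly higher in replicate 1 and the anchors slightly higher in replicate 2, by log2 ratios between -0.41 and 0.11. Sdha was the highest and Sdhc the lowest of the complex in both libraries.

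In complex III, Uqcr10, a small accessory subunit, was the highest nuclear member with 2815 and 2727 counts at levels of 116 and 112. The core proteins Uqcrc2 (8709 and 8424 counts, levels 81.8 and 79.4) and Uqcrfs1, the Rieske iron-sulfur protein (4375 and 4143 counts, levels 77.0 and 73.1), followed by the mean of the libraries. At the low end were Uqcrq with 1756 and 1427 counts at 23.0 and 18.7, Uqcr11 with 1200 and 1278 counts at 44.9 and 48.0, and Uqcrh, the hinge protein, with 3133 and 3387 counts at 60.7 and 65.9. This order depended on the gene length used. With the length of the principal transcript, Uqcrc1 had the highest mean level, at 179. Uqcrh, at 143, was then above Uqcrc2 (109) and Uqcrfs1 (75.0). Every one of the 8 nuclear members stayed within log2 ratios of -0.26 and 0.18 between the libraries.

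In complex IV, the nuclear subunits split into ubiquitous and tissue-restricted forms. The highest were Cox6b1 with 6196 and 6266 counts at levels of 209.8 and 213, Cox8a with 5199 and 4219 counts at 201 and 164, and Cox4i1, the largest nuclear subunit, with 12517 and 10330 counts at 194 and 160.3. The order of the highest members changed with the length of the principal transcript. Cox4i1 then had the highest mean level, at 359, followed by Cox5a at 296, and both were above Cox6b1 and Cox8a. By mean level, the lowest of those that averaged 10 counts or more were Cox8c with 15 and 12 counts, Cox4i2 with 95 and 14 counts, and Cox7b2 with 46 and 238 counts. All of the low genes are restricted forms. Cox6a2 had 9 and 0 counts and Cox8b had 5 and 0 counts, and these heart and skeletal muscle forms were below the minimum for a ratio. No member had 0 counts in both libraries.

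In complex V, the catalytic head led. Atp5b, the beta subunit that makes ATP, had 95243 and 98897 counts at levels of 539 and 562, the highest of all nuclear members. Atp5a1, the alpha subunit, had 55509 and 60698 counts at 425 and 466, and these 2 genes took 73.9% and 75.5% of the nuclear counts of complex V. Atp5c1, the gamma subunit of the rotating shaft, followed with 11020 and 10282 counts at 138 and 129.7. By the mean, the lowest were Atp5l at 0.354 and 0.504, Atp5g2 with 322 and 190 counts at 4.61 and 2.73, and Atp5s, coupling factor B, with 622 and 287 counts at 7.31 and 3.39. Atp5g1, at 5.61 and 6.24, was below Atp5s in replicate 1. With the length of the principal transcript, the mean level of Atp5g3 (229) was above that of Atp5c1 (219). Atp5g1 (6.17) was then below Atp5s (6.82) and Atp5g2 (8.41). Atp5l and Atp5g2 share 68.5% and 87.4% of their words with other genes.

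The share of each paralogue was computed from levels within 8 groups of alternative subunits, and in each of them the same form was the highest in both libraries. Cox4i1 took 98.5% and 99.7% over Cox4i2, the form of lung and of low oxygen. Cox6a1 took 99.8% in replicate 1, with no count of Cox6a2 in replicate 2, and Cox8a took 99.4% and 99.6% over Cox8b and Cox8c. Ndufa4 took 94.1% and 99.0% over Ndufa4l2, which is known to be induced in hypoxia. Atp5g3 took 88.3% and 89.3% of the c-ring group, beside 6.44% and 7.41% for Atp5g1 and 5.29% and 3.24% for Atp5g2. The genes of the c subunit encode the same mature protein, and 2 of them share words with pseudogenes.

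Other groups were mixed. Cox6b2, known from testis, had 2079 and 1584 counts and took 17.7% and 13.9% of its group beside Cox6b1. Cox7a2 took 53.5% and 60.8%, Cox7a2l, which joins complexes III and IV into supercomplexes, 28.8% and 29.9%, and Cox7a1, the muscle form, 17.7% and 9.26%. Cox7a2l shares 19.8% of its words with the pseudogene Gm6969, which had 1746 and 1367 counts beside 2673 and 2017 for Cox7a2l. Its share is therefore uncertain. Cox7b took 97.2% and 86.7% over Cox7b2, a form known from testis. The share of Cox7b2 was thus 2.81% in replicate 1 and 13.3% in replicate 2. Of the 5 testis markers, the sperm packaging genes Prm1, Prm2 and Tnp1 had 0 counts in both libraries, Pgk2 had 0 and 6, and Ldhc had 126 and 185.

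**Figure D4:**
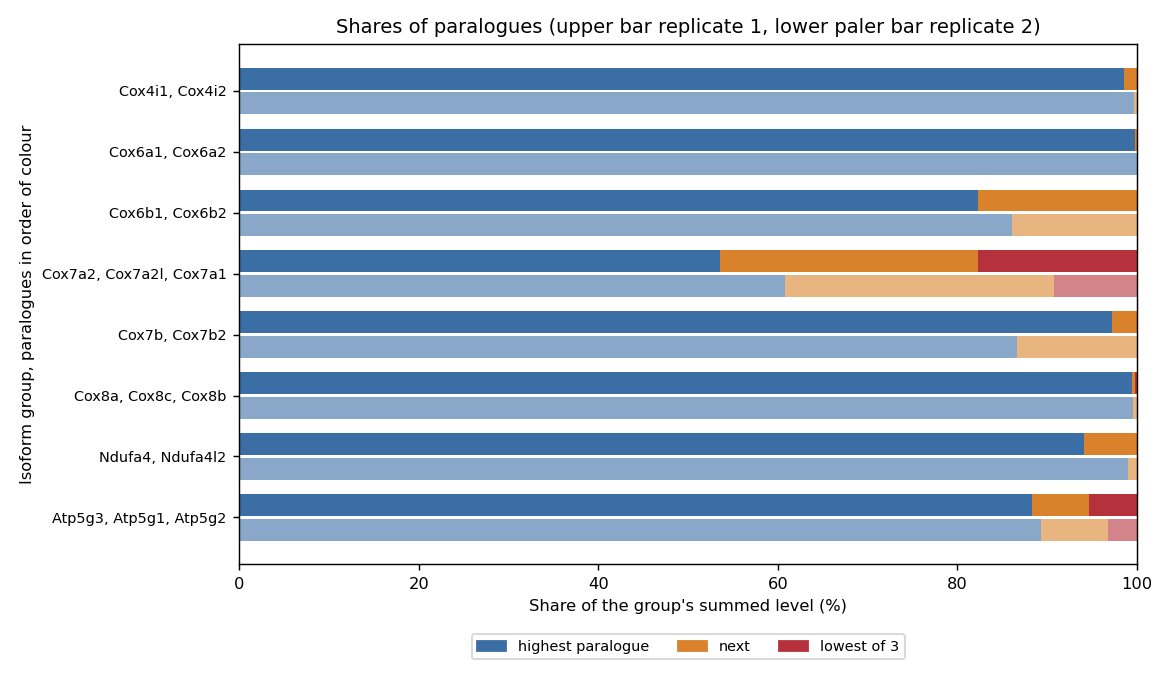
Share of each paralogue in the summed level of its group, in percent, with the upper bar for replicate 1 and the lower, paler bar for replicate 2. The highest paralogue takes over 82% of the level in 7 of the 8 groups and between 53.5% and 60.8% in the group of Cox7a2, Cox7a2l and Cox7a1.

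The libraries were then compared gene by gene, as log2 ratios of replicate 1 over replicate 2 after scaling by TMM (trimmed mean of M-values) with a pseudocount of 1, for genes averaging 10 counts or more over the libraries. Of all 17788 such genes, 23.5% were higher in replicate 1 by 1.5-fold or more and 16.1% were higher in replicate 2. Of the 96 members in this range, 7 (7.29%) were higher in replicate 1 and 4 (4.17%) in replicate 2, a smaller share than over all genes in each direction. The median size of the log2 ratio, without its sign, was 0.19 for members and 0.45 for all genes. Among genes averaging 1000 counts or more, 9.65% and 12.6% of 7401 genes passed 1.5-fold, against 2.63% in each direction of 76 members, with median sizes of 0.31 and 0.18. Under scaling by total counts, which moved the median of all genes by 0.12 upwards, members past 1.5-fold were 8 and 1 and all genes were at 27.4% and 12.5%.

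By complex, median log2 ratios of nuclear members were 0.05 in complex I, -0.07 in II, -0.13 in III, 0.18 in IV and -0.14 in V, and -0.19 for the mitochondrial members, where the median of all genes was 0.02. Without the members that share at least 20% of their words, whose counts are uncertain, the medians were -0.39 for the mitochondrial members, -0.08 in complex III and -0.09 in complex V. None reached 1.5-fold, and the median of complex II became 0.05 under total counts. In complex IV, 11 of 16 nuclear members in the range were higher in replicate 1 (13 under total counts). Higher in replicate 2 were 7 of 8 in complex III (4 under total counts) and 12 of 17 in complex V (9 under total counts). Of all genes, 51.3% were higher in replicate 1, and of genes averaging 1000 counts or more 41.2%, with a median of -0.09. All 13 mitochondrial members were lower in replicate 1, with ratios from -0.69 to -0.03. Under total counts 9 of the 13 were lower, with ratios from -0.57 to 0.09, so the direction of the remaining 4 depended on the scaling. As these RNAs are transcribed together, they are not independent of each other.

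The mitochondrial differences were uneven along the genome. mt-Nd1 differed by -0.61 (95% exact binomial interval for counting error -0.62 to -0.60), mt-Nd2 by -0.55 (-0.56 to -0.54) and mt-Nd6 by -0.69 (-0.74 to -0.65), while mt-Co1 differed by -0.06 and mt-Nd4 by -0.05. Only mt-Nd1 and mt-Nd6 passed 1.5-fold, and neither did under total counts. Thus mt-Nd1 and mt-Nd2, which are neighbours in the genome, had a lower level relative to mt-Co1, the next protein gene, in replicate 1 than in replicate 2. Such a ratio within a library does not depend on the scaling.

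Of the 7 members higher in replicate 1, 3 lie on chromosome 15, and all 4 members on that chromosome were higher in replicate 1. Ndufb9 (chr15:58933756-58939488) had 6194 and 2461 counts, a log2 ratio of 1.21 (1.14 to 1.28). Ndufa6 (chr15:82350140-82354322), an accessory subunit that binds the acyl carrier protein, had 3366 and 1377 counts, 1.17 (1.08 to 1.26). Atp5g2 (chr15:102662864-102672352) had 322 and 190 counts, 0.64 (0.38 to 0.91), and Cox6c (chr15:35925886-35938246) had 6719 and 4464 counts, 0.47 (0.41 to 0.52). The chromosome as a whole moved the same way. Its 683 genes in the range had a median of 0.59, and 50.4% were at least 1.5-fold higher in replicate 1, against a median of 0.00 and 22.4% for 16968 genes of other chromosomes. The 45 genes within 1 Mb of Ndufa6 had a median of 0.58 and the 19 around Ndufb9 of 0.46. The ratios of Ndufb9 and Ndufa6 were above those medians, with 161 and 170 of the 683 genes at or above them. Atp5g2 was near the median of its neighbours (0.58), with 322 genes of the chromosome at or above it. Cox6c was below the median of its neighbours (0.69), with 408 genes at or above it. Cyc1, which the rule leaves out, is on the same chromosome and had 9792 and 7236 counts, a log2 ratio of 0.31. The cause was not tested.

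The other 4 members higher in replicate 1 were low. Ndufa4l2 had 372 and 60 counts, a log2 ratio of 2.49 (2.11 to 2.93), and Cox4i2 had 95 and 14 counts, 2.56 (1.82 to 3.57). Both are forms associated with low oxygen, and they had the largest ratios of all members in this range. Cox7a1 had 594 and 226 counts, 1.27, and Atp5s had 622 and 287, 0.99 (0.79 to 1.20). Muscle markers also differed, with 22.1 and 7.77 CPM summed over 5 genes, mostly from myoglobin (Mb), on chromosome 15, with 661 and 77 counts. Of the other 4, Tnnt2 had 123 and 65 counts and Ckm, the muscle creatine kinase, 27 and 17, while the myosins Myh6 with 92 and 110 and Myh7 with 20 and 54 were higher in replicate 2. The trophectoderm, primitive endoderm, fibroblast and embryonic stem cell lists were also higher in replicate 1, as given above. The neuroectoderm and testis lists were higher in replicate 2. The part of such cells in these results was not tested.

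The 4 members higher in replicate 2 comprised mt-Nd1 and mt-Nd6, described above, with Cox7b2 and Atp5l. Cox7b2 had 46 and 238 counts, a log2 ratio of -2.47 (-2.98 to -2.03), and kept its place under every scaling tried. Atp5l had 95 and 135 counts, -0.62 (-1.02 to -0.24), and its copy Gm10221 was at 19.0 and 19.9 times the count of the member, so that the pair moved together. Cox7b2 was thus opposite in direction to Cox4i2 and Cox7a1.

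**Figure D5:**
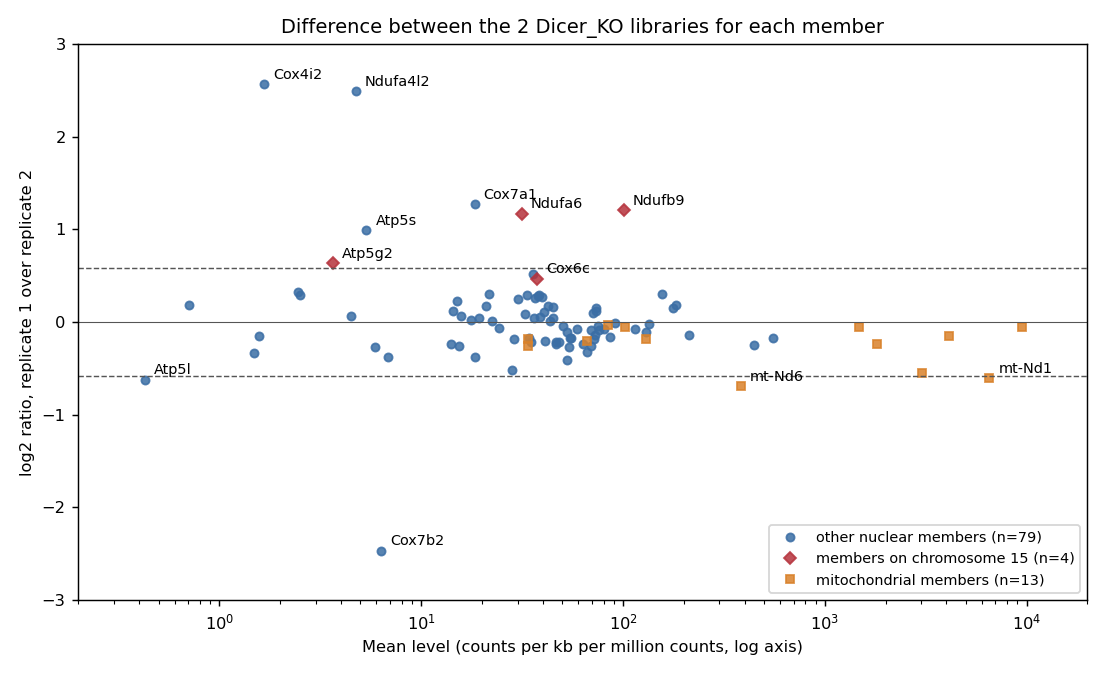
The log2 ratio of replicate 1 over replicate 2 (TMM scaling) against the mean level of each of the 96 members averaging 10 counts or more (log axis). Dashed lines mark 1.5-fold, diamonds the 4 members on chromosome 15, and squares the 13 mitochondrial members. Members past 1.5-fold and those on chromosome 15 are named. Most members lie between the lines, and the farthest from 0 are restricted isoforms at low levels.

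Genes that build and serve the complexes were read beside the same background of 23.5% and 16.1%. Of 43 assembly factors, 2 were higher in replicate 1 by 1.5-fold or more and 2 in replicate 2. Acad9, which assembles complex I, had 2369 and 4509 counts, a log2 ratio of -1.05, and Cox14, on chromosome 15, had 1001 and 475, 0.95. Of 19 genes that express or maintain the mitochondrial genome, 1 was higher in replicate 1 and 2 in replicate 2. The latter were Elac2, which trims tRNA ends from the polycistronic RNAs (2272 and 3806 counts, -0.87), and Tfb2m, an initiation factor of mitochondrial transcription (625 and 939 counts, -0.71). Tfam, which packages and transcribes the genome, had 1592 and 1564 counts, a ratio of -0.10, and Lrpprc, which stabilises its mRNAs, had 7914 and 10533, -0.53. The gene higher in replicate 1 was Polg2, the accessory subunit of the mitochondrial DNA polymerase (312 and 185 counts, 0.63).

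Among 13 genes of ubiquinone synthesis and of the cytochromes c and c1, 2 were higher in each library. Coq8a, needed for ubiquinone synthesis, had 1385 and 478 counts, a log2 ratio of 1.41, and Pdss1, which makes its side chain, had 670 and 1089, -0.82. Cycs, the somatic cytochrome c, had 154 and 189 counts, and Cyct had 320 and 206. Copies of these genes were not searched for, so no low transcript level is read from their counts. Of the 8 regulators in the range, Ppargc1b was higher in replicate 2 (223 and 327 counts, -0.67). Nrf1, an activator of nuclear respiratory genes, had 2752 and 2708 counts, and Ppargc1a, the coactivator of brown fat and muscle, had 2 and 0. In all 4 lists the share past 1.5-fold was below the background in each direction. Higher in replicate 2 were 2 of 13 carriers and 1 of 8 regulators, close to the 16.1% of all genes. No difference is read from these small lists. The background of genes averaging 1000 counts or more was lower, at 9.65% and 12.6%.

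Promoters were searched for the cores of 3 factors that are known to control respiratory genes: GCGCANGC for NRF1, CCGGAAG for ETS factors such as GABP, and AANATGGC for YY1. RefSeq promoters (GRCm38.p6, 250 bases before to 50 after the start, either strand) matched 69 of the 85 nuclear members. The NRF1 core was found in 33.8% of their 74 promoters and in 9.95% of all 32851 promoters of RefSeq genes. The ETS core was in 21.6% against 8.86%, and the YY1 core in 23.0% against 6.05%. These are counts of letters, not of bound sites, and base composition was not matched. No cores of different factors overlapped in these promoters, whereas NRF1 cores on opposite strands can overlap each other.

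The cores were also counted per gene in each complex. Of all 27025 genes with a promoter, 11.2% held the NRF1 core, 9.93% the ETS core and 6.96% the YY1 core. The NRF1 core was in 3 of 3 genes of complex II with a promoter, 9 of 15 of complex V, 9 of 33 of complex I, 2 of 5 of complex III and 1 of 13 of complex IV. The YY1 core was in 12 of 33 genes of complex I, 4 of 15 of complex V and 1 of 13 of complex IV, with none in complexes II and III. In 10 of the 17 genes with a YY1 core it lay after the start. The ETS core was in 4 of 33 genes of complex I, 5 of 15 of complex V and 3 of 13 of complex IV. It was in 2 of 5 genes of complex III and 2 of 3 of complex II. With few genes in a complex, no difference between complexes is read from these counts. The 120 bases before the start of the complex II genes are shown because all 3 hold the NRF1 core, in capitals, on either strand:

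Sdha (chr13:74350241-74350360, minus strand): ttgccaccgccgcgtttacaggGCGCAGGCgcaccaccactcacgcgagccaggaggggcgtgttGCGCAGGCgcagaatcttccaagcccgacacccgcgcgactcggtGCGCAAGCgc
Sdhb (chr4:140961151-140961270, plus strand): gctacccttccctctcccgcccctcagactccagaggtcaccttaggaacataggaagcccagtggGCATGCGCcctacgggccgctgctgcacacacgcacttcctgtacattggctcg
Sdhd (chr9:50603850-50603969, minus strand): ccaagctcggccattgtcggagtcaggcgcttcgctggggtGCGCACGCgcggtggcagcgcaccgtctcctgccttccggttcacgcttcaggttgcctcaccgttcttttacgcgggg

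Sdha held 3 such cores and Sdhb and Sdhd 1 each. Between the libraries these genes had log2 ratios of 0.11 for Sdha, 0.05 for Sdhb and -0.41 for Sdhd. No binding was measured in this series.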

How the data were processed

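PolyA RNA of 2 Dicer_KO mESC cultures was sequenced with a reverse-stranded protocol. The authors trimmed reads with Trimmomatic, aligned them to mm10 with STAR 2.4.2a, keeping reads that hit several places, and used featureCounts 1.4.5-p1 to count reads per Ensembl gene, ignoring those in overlaps of genes. The deposited values are raw counts per gene, without normalization. Groups came from the sample titles. The identifiers were named by GENCODE M21 (GRCm38), in which 1081 had no entry (0.152% and 0.168% of counts).

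Counts were divided by total counts and merged exon length. Libraries were scaled by TMM of edgeR 4.0.16 (R 4.3.3). Intervals were computed with scipy 1.17.1. With 1 group, no model was fitted and no p-value computed. The ratio step was tested on simulated data. Alternatives were DESeq2 1.42.0 size factors, total counts, other lengths, minimums, pseudocounts and thresholds, and leaving out libraries or members; those on principal transcripts and copies were added after seeing the data. Members and lists were chosen with earlier results of these data known. Named genes are mitochondrial members, isoform groups, core subunits, the 3 highest and 3 lowest nuclear members of each complex, members past 1.5-fold and those on chromosome 15; others, such as genes with copies and those of the further lists, were chosen after their values were seen. A gene that this rule names is not reported here.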

Additional observations from a re-analysis of the deposited data

How the results depend on the processing

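Of 163 alternative values for 24 results, 140 moved by less than the spread between replicates (for counts, by less than 1.5 times), and 23 moved more. Part of the 140 was fixed in advance and does not speak for stability. Leaving out 1 of 2 libraries always moves a mean by less than the SD, and some changes touched no gene of a result. Median levels of complexes I, II, III, IV and V became 44.1, 67.2, 101, 52.7 and 70.2 with the longest transcript and 52.9, 70.4, 111, 65.4 and 94.6 with the principal transcript, which are shorter than merged exons. Adding the copies raised complex IV to 52.9. The mitochondrial median became 1649 without mt-Nd6, mt-Nd4l and mt-Atp8 and 2421 without members sharing at least 20% of their words. Members at least 1.5-fold higher in replicate 1 were 4 without chromosome 15, and those higher in replicate 2 were 1 under total counts, 1 under total counts without the mitochondrial genome and 1 at 2-fold, where 14.2% and 7.14% of all genes passed. Shares of counts of protein-coding genes were 1.06% for nuclear and 3.67% for mitochondrial members. Without division by length, Cox6b1 took 77.3%, Cox7a2 51.6%, Cox8a 99.7% and Atp5g3 82.5% of their groups. No paired analysis was possible because the samples form 1 group. Members with few counts have wide counting intervals, and the 2 libraries allow no test between them.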
